A study of Mus musculus with 12 samples.

Results

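The H2 genes of the mouse major histocompatibility complex were examined on the 12 arrays of a study of the RNA-binding proteins Lin28a and Lin28b. All entries of the gene-level table whose symbol begins with H2-, whether capitals or not, were taken, which gave 40 of 30854 entries. The cells were mouse pluripotent stem cells, and 1 Illumina WG-6 BeadChip array was hybridised per sample. There were 3 samples of each of 4 groups, namely loss of function of Lin28a, loss of function of Lin28b, loss of function of both (called double loss), and wild type without either loss. Samples of Lin28a loss and wild type share 1 chip (chip 1), and samples of Lin28b loss and double loss share the other (chip 2). All cells were grown in serum medium with the cytokine Lif. The titles give 1 line name per genotype, so line and genotype cannot be told apart, and the allele and the mouse strain of each line are not given in the sources used here. The labels call the cells embryonic stem cells, while the series design speaks of wild-type iPS cells, which are induced from other cells. Nothing says that replicates came from separate cultures, so p-values may measure technical spread only.

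H2 class I molecules carry peptides from inside the cell to its surface, where CD8 T cells and natural killer cells read them. They comprise the classical H2-K and H2-D molecules and many nonclassical relatives named by the regions Q, T and M of mouse chromosome 17. Class II molecules are pairs of an alpha and a beta chain that present peptides from endosomes, and their expression is mostly known from dendritic cells, macrophages and B cells. H2 genes differ in sequence and number between mouse strains, and many are close copies of each other. Probes for one copy may read another, so values of H2-Q5, H2-Q6, H2-Q7, H2-Q8, H2-T10 and H2-Tw3 are uncertain as measures of a single gene. Probe sequences were not at hand, so this could not be checked for the other H2 genes either, among them H2-K1, H2-D1 and H2-Bl. Pluripotent cells are known for low class I levels.

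Mean raw signal per array ran from 325.4 to 596.7, and 9377 to 10773 entries per array were above background, which here means a detection p under 0.01. The brightest arrays, namely Lin28a loss replicate 3, double loss replicate 1 and wild type replicate 1, deviated from their groups in a like way across genes. All 8 pluripotency markers, among them Pou5f1, Nanog and Sox2, were above background in all 4 groups. None of 9 fibroblast markers was above background in any group. Their summed intensity per array was 483 to 574 in Lin28a loss and 288 to 352 in Lin28b loss. It was 476 to 590 in double loss and 409 to 493 in wild type. A missed detection alone does not place an entry with several probes near background, so absence of each marker was not established. Of 9 white blood cell markers measured, Laptm5, Coro1a and Cd3e were above background in all groups and the other 6 on no array, including the defining Ptprc. Lin28a averaged 5.66 ± 0.08 log2 intensity in Lin28a loss, 7.03 ± 0.17 in Lin28b loss, 5.48 ± 0.17 in double loss and 7.97 ± 0.10 in wild type (SD, n = 3 each). Every array read Lin28a above background, and which part of the gene the probes cover is not stated. No group had Lin28b above background, so the loss of Lin28b went unchecked here.

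Of the 40 H2 entries, 13 were above background on all 3 arrays of Lin28a loss, 10 in Lin28b loss, 10 in double loss and 8 in wild type. The shares of all 30854 entries were 31.1%, 29.6%, 29% and 28.7% in the same groups. Over all groups, 16 H2 entries passed on every array of some group (33.6% of all entries did), 6 passed in all 4 groups, and 24 passed on no array (60.1% of all entries). Both classical class I genes passed. So did 4 of 7 Q region genes, 2 of 7 T region genes, 1 of 11 M region genes, H2-Bl, 2 of 5 class II surface chains, 3 of 5 genes of class II peptide exchange, and H2-Ke6. H2-Q7 missed on 2 arrays of Lin28a loss, with detection p values of 0.0286, 0.0199 and under the threshold on the other. H2-Tw3 passed on all 3 arrays of Lin28a loss and on no other array. H2-Q5 passed on all 3 wild-type arrays (detection p 0.00329, 0.0048 and 0.00353) and on no Lin28a-loss array (0.651, 0.797 and 0.672).

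**Figure D1:**
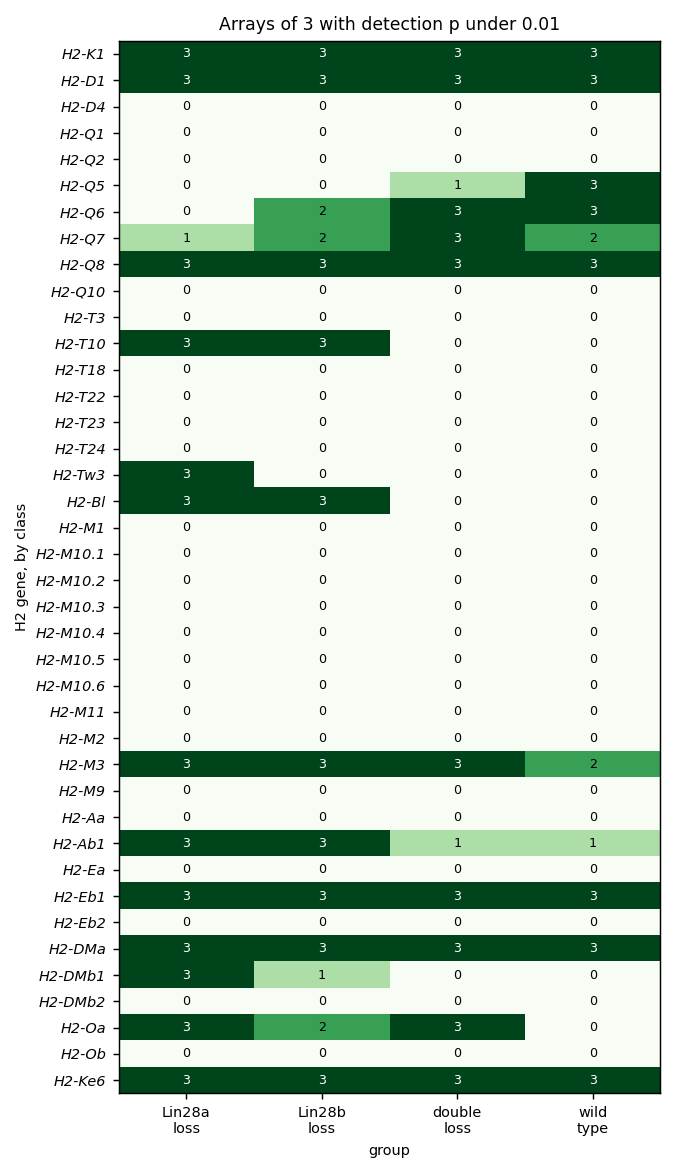
Each row is an H2 entry and each column a group. The number and the shade give how many of the 3 arrays had a detection p under 0.01. The 16 entries with a 3 are those tested, and 24 rows hold only 0.

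The 24 entries that passed on no array were H2-D4, H2-Q1, H2-Q2, H2-Q10, H2-T3, H2-T18, H2-T22, H2-T23, H2-T24, H2-M1, H2-M10.1, H2-M10.2, H2-M10.3, H2-M10.4, H2-M10.5, H2-M10.6, H2-M11, H2-M2, H2-M9, H2-Aa, H2-Ea, H2-Eb2, H2-DMb2 and H2-Ob. Their normalized log2 intensities had a median of 4.50, and 22 of them reached at most 5.21. The other two, H2-T23 and H2-DMb2, were brighter. H2-T23, the gene of the nonclassical molecule Qa-1, is read by 3 probes and lay between 7.03 and 8.23. H2-DMb2, a beta chain of the peptide exchange factor H2-M, is read by 2 probes. Its log2 intensity was 7.42, 7.38 and 6.64 in Lin28a loss, 5.40, 5.46 and 5.22 in Lin28b loss, 4.55, 4.54 and 4.49 in double loss, against 4.55, 4.64 and 4.58 in wild type. The Lin28a-loss arrays were far above all others, yet their detection p values were 0.472, 0.1 and 0.318. H2-T10, read by 3 probes, passed in Lin28a loss at a lower level than that at which it failed in wild type. For entries with several probes, a missed detection therefore does not place the level near background.

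Levels below are normalized log2 intensities, and differences are between group means on that scale. Tests were made with limma across all 9912 genes that were above background on every array of some group. A gene is said to have risen or fallen where its p-value, adjusted by Benjamini-Hochberg over those genes, was under 0.05. Levels of different genes are not compared, since each has its own probes. In bulk RNA, fewer cells of a type and less RNA per cell cannot be told apart.

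**Figure D2:**
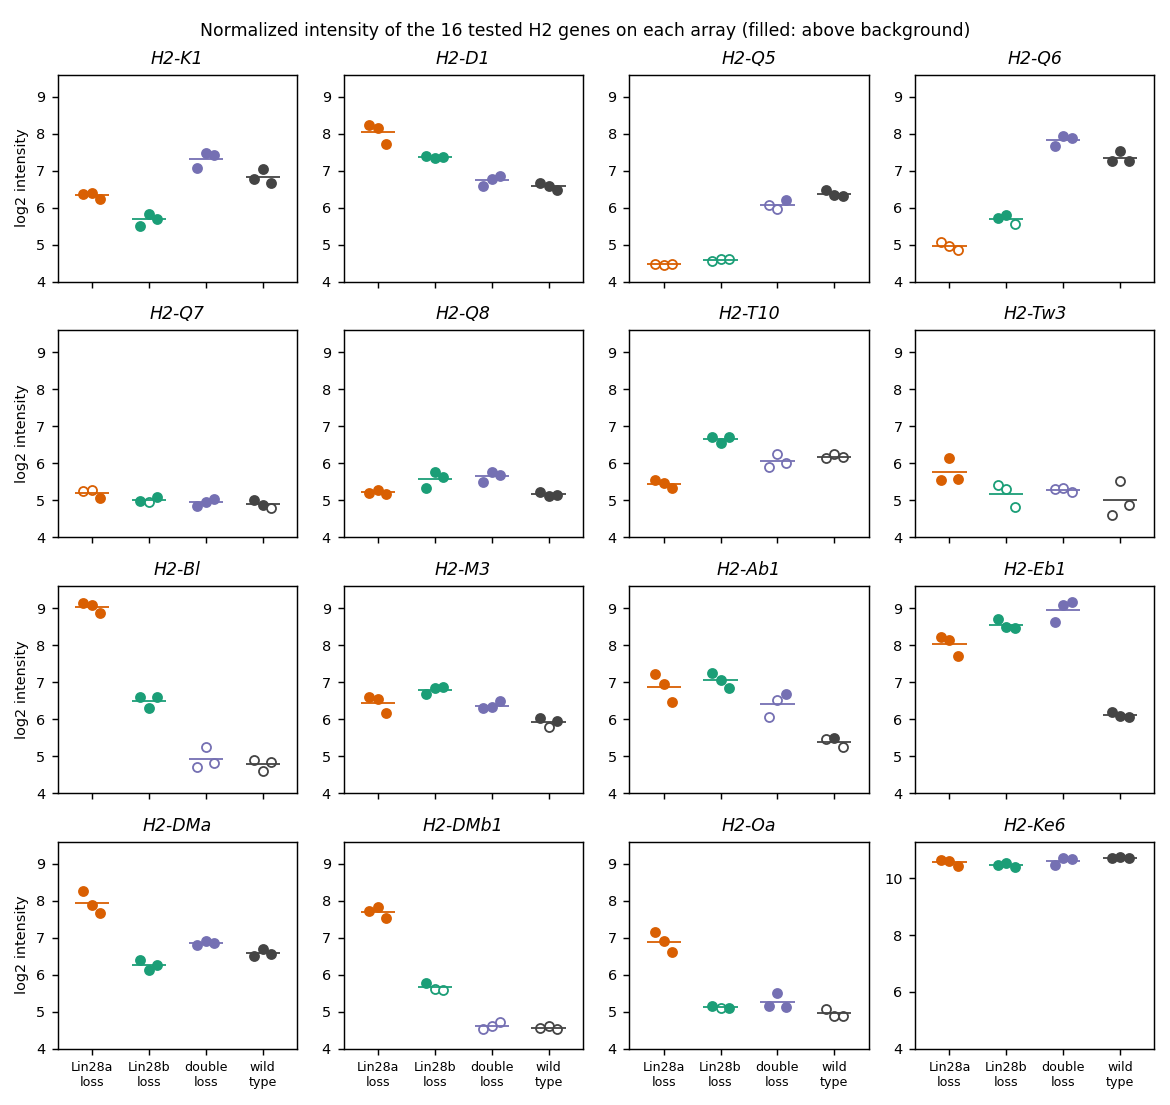
Each panel is 1 of the 16 tested H2 genes. Points are arrays, filled where the detection p was under 0.01, bars are group means, and the vertical axis is normalized log2 intensity (H2-Ke6 has an axis of its own). H2-Bl and H2-DMb1 stand highest in Lin28a loss, H2-Q5 and H2-Q6 stand lowest there, and H2-Eb1 is lowest in wild type.

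The classical class I heavy chains H2-K1 and H2-D1 went opposite ways in both single-loss groups. H2-K1 had 6.36, 6.40 and 6.24 in Lin28a loss, 5.51, 5.83 and 5.70 in Lin28b loss, 7.07, 7.48 and 7.43 in double loss, against 6.77, 7.04 and 6.67 in wild type. The 4 groups did not overlap, with Lin28b loss lowest and double loss highest. H2-K1 fell by 0.49 ± 0.13 (SE) in Lin28a loss (limma, adjusted p = 0.0111) and by 1.15 ± 0.13 in Lin28b loss (limma, adjusted p = 3.09e-05), and rose by 0.50 ± 0.13 in double loss (limma, adjusted p = 0.0103), each against wild type. H2-D1 had 8.24, 8.14 and 7.73 in Lin28a loss, 7.40, 7.34 and 7.36 in Lin28b loss, 6.60, 6.79 and 6.85 in double loss, against 6.67, 6.59 and 6.47 in wild type. Double loss overlapped with wild type, and both single-loss groups lay above. H2-D1 rose by 1.46 ± 0.13 in Lin28a loss (limma, adjusted p = 2.04e-06) and by 0.79 ± 0.13 in Lin28b loss (limma, adjusted p = 0.000354), and the difference of double loss from wild type was 0.17 ± 0.13 (limma, adjusted p = 0.319).

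The Q region lies beside H2-D1 on chromosome 17 and holds several class I copies. H2-Q6 had 5.07, 4.97 and 4.87 in Lin28a loss, 5.73, 5.79 and 5.55 in Lin28b loss, 7.68, 7.94 and 7.90 in double loss, against 7.27, 7.54 and 7.26 in wild type. Both single-loss groups lay far below the other two, and no Lin28a-loss array was above background. H2-Q6 was at least 3.81-fold lower in Lin28a loss than in wild type, where all 3 arrays passed (means 4.97 ± 0.10 and 7.36 ± 0.16, SD; limma, adjusted p = 7.85e-09). In Lin28b loss it fell by 1.67 ± 0.11 (limma, adjusted p = 2.51e-07), and in double loss it rose by 0.48 ± 0.11 (limma, adjusted p = 0.00446). A bound of this kind sets the mean of the brighter group against a floor on each array of the dimmer group. The floor is the higher of the gene's own signal and the lowest signal above background among entries with 1 probe. H2-Q6 is read by 1 probe. For genes read by several, such as H2-Q5 with 3, the floor need not be a detection limit, so their bounds here and below are approximate.

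H2-Q5 was likewise low in both single-loss groups. It had 4.48, 4.45 and 4.47 in Lin28a loss, 4.55, 4.61 and 4.60 in Lin28b loss, 6.08, 5.96 and 6.21 in double loss, against 6.47, 6.35 and 6.32 in wild type. Neither single-loss group had an array above background, and 1 double-loss array passed. H2-Q5 was at least 1.93-fold lower in Lin28a loss than in wild type (means 4.47 and 6.38; limma, adjusted p = 6.01e-09) and at least 1.69-fold lower in Lin28b loss (means 4.59 and 6.38; limma, adjusted p = 1.14e-08), with all 3 wild-type arrays above background. In double loss it fell by 0.30 ± 0.09 (limma, adjusted p = 0.0169).

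H2-Q7 and H2-Q8 are further Q region copies with small differences. H2-Q7 ranged from 4.80 to 5.29 over all arrays. It rose by 0.30 ± 0.09 in Lin28a loss, with 1 of 3 arrays above background there (limma, adjusted p = 0.023). H2-Q8 had 5.21, 5.28 and 5.18 in Lin28a loss, 5.34, 5.77 and 5.64 in Lin28b loss, 5.50, 5.77 and 5.67 in double loss, against 5.21, 5.12 and 5.15 in wild type. Both groups on chip 2 lay above both groups on chip 1. H2-Q8 rose by 0.42 ± 0.11 in Lin28b loss (limma, adjusted p = 0.0115) and by 0.48 ± 0.11 in double loss (limma, adjusted p = 0.00487), comparisons that cross chips, where genotype and chip cannot be told apart.

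The promoters of H2-K1, H2-D1 and H2-Q6 are shown because these class I genes share an upstream element and moved in different directions. Each is the 250 bases before the gene's start in RefSeq, from mouse build GRCm38.p6, at chr17:34000348-34000597 on the minus strand (H2-K1), chr17:35262844-35263093 on the plus strand (H2-D1) and chr17:35424600-35424849 on the plus strand (H2-Q6). Capitals mark matches to the enhancer A motif searched (GGGGA, any base, TCCCC), letters of the NF-kB-type element of class I promoters, and to ATTGG or its complement CCAAT, letters of the Y box bound by NF-Y.
H2-K1: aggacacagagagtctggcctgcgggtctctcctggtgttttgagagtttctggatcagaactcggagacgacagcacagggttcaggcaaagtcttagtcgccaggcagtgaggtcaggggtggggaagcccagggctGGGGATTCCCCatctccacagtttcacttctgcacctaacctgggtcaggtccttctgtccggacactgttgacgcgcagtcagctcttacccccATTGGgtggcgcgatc
H2-D1: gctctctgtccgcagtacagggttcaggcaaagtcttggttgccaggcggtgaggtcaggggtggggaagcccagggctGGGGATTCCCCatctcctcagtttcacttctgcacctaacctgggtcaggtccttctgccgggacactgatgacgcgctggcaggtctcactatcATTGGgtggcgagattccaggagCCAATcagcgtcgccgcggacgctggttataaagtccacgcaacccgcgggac
H2-Q6: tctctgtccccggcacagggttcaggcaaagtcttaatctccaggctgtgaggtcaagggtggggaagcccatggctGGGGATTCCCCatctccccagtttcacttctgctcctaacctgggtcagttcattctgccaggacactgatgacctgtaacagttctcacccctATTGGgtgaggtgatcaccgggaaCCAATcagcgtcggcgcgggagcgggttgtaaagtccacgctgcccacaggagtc

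All 3 promoters hold GGGGATTCCCC, first base 111 bases before the start in H2-K1, 171 in H2-D1 and 173 in H2-Q6. Those of H2-D1 and H2-Q6 were 82% identical when aligned, and that of H2-K1 was 56.1% identical to H2-D1 and 53.7% to H2-Q6. H2-D1 rose and H2-Q6 fell in both single-loss groups. A link between promoter sequence and these differences was not tested. Windows were taken before the most upstream start that RefSeq lists for a gene, so distances from the start depend on that choice. Both strands of 27025 mouse promoters of the same window were searched. The enhancer A letters were in 0.0444% of them and in these 3 of the 29 H2 members with a promoter in the table. ATTGG was in 26 of the 29 (89.7%), against 34.5% of all. The letters GAAA, any 2 bases, GAAA, a form of interferon element, were in 2 of the 29, against 3.05% of all. The 2 were those of H2-T22 and H2-T23. Other forms of interferon element were not searched, so their absence from the other promoters was not established. A match in these windows is a run of letters and not evidence that a factor was bound.

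H2-Bl, a class I gene named for its expression in blastocysts, had the largest difference of Lin28a loss from wild type among the 16 tested members. It had 9.14, 9.08 and 8.87 in Lin28a loss, 6.60, 6.29 and 6.60 in Lin28b loss, 4.70, 5.25 and 4.81 in double loss, against 4.88, 4.58 and 4.85 in wild type. It was above background on every array of both single-loss groups and on none of double loss or wild type, whose values overlapped. H2-Bl stood at least 10.3-fold higher in Lin28a loss than in wild type (means 9.03 ± 0.14 and 4.77 ± 0.16, SD; limma, adjusted p = 5.39e-10) and at least 1.78-fold higher in Lin28b loss (means 6.49 ± 0.18 and 4.77 ± 0.16; limma, adjusted p = 2.56e-06). Double loss differed from wild type by 0.15 ± 0.15 (limma, adjusted p = 0.468).

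The T region gene H2-T10 encodes a nonclassical molecule recognised by gamma delta T cells. It had 5.54, 5.48 and 5.32 in Lin28a loss, 6.71, 6.54 and 6.71 in Lin28b loss, 5.91, 6.26 and 6.02 in double loss, against 6.15, 6.24 and 6.16 in wild type. Lin28a loss lay lowest and Lin28b loss highest, while double loss and wild type overlapped. H2-T10 fell by 0.74 ± 0.10 in Lin28a loss (limma, adjusted p = 0.000147). It rose by 0.47 ± 0.10 in Lin28b loss (means 6.65 and 6.18; limma, adjusted p = 0.0037), where all 3 arrays were above background and no wild-type array was. H2-Tw3 is another T region entry, which RefSeq lists as a synonym of another H2 entry and which is counted on its own here. It had 5.55, 6.14 and 5.58 in Lin28a loss, 5.41, 5.31 and 4.82 in Lin28b loss, 5.30, 5.34 and 5.23 in double loss, against 4.60, 5.53 and 4.87 in wild type. The wild-type arrays spread widely and each lay below every Lin28a-loss array. H2-Tw3 stood at least 1.07-fold higher in Lin28a loss than in wild type, with all 3 Lin28a-loss arrays above background (means 5.76 ± 0.33 and 5.0 ± 0.48, SD; limma, adjusted p = 0.0207).

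H2-M3, which presents peptides with formylated methionine, was the only one of 11 M region entries above background. It had 6.59, 6.53 and 6.16 in Lin28a loss, 6.67, 6.83 and 6.86 in Lin28b loss, 6.29, 6.33 and 6.48 in double loss, against 6.02, 5.77 and 5.95 in wild type. Every loss array lay above every wild-type array. H2-M3 rose by 0.51 ± 0.12 in Lin28a loss (limma, adjusted p = 0.00514), by 0.87 ± 0.12 in Lin28b loss (limma, adjusted p = 0.000124) and by 0.45 ± 0.12 in double loss (limma, adjusted p = 0.0108).

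Of the class II surface chains, the beta chains H2-Ab1 and H2-Eb1 were above background, while their alpha partners H2-Aa and H2-Ea were so on no array and lay between 4.38 and 4.58. H2-Eb1 had 8.22, 8.14 and 7.71 in Lin28a loss, 8.70, 8.48 and 8.47 in Lin28b loss, 8.63, 9.09 and 9.15 in double loss, against 6.20, 6.07 and 6.04 in wild type. All 9 loss arrays lay well above the 3 wild-type arrays. H2-Eb1 rose by 1.92 ± 0.16 in Lin28a loss (limma, adjusted p = 1.21e-06), by 2.45 ± 0.16 in Lin28b loss (limma, adjusted p = 1.63e-07) and by 2.85 ± 0.16 in double loss (limma, adjusted p = 3.89e-08). H2-Ab1 had 7.21, 6.95 and 6.47 in Lin28a loss, 7.23, 7.06 and 6.83 in Lin28b loss, 6.05, 6.52 and 6.68 in double loss, against 5.45, 5.48 and 5.25 in wild type. Again no loss array overlapped with wild type, although 1 array each of double loss and wild type was above background. H2-Ab1 rose by 1.48 ± 0.19 in Lin28a loss (limma, adjusted p = 7.71e-05), by 1.65 ± 0.19 in Lin28b loss (limma, adjusted p = 3.29e-05) and by 1.02 ± 0.19 in double loss (limma, adjusted p = 0.00119).

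The 3 tested genes of class II peptide exchange were highest in Lin28a loss. H2-DMa and H2-DMb1 encode chains of H2-M, which loads peptides onto class II molecules, and H2-Oa encodes a chain of H2-O, which inhibits H2-M. H2-DMb1 had 7.71, 7.84 and 7.53 in Lin28a loss, 5.78, 5.62 and 5.60 in Lin28b loss, 4.54, 4.61 and 4.71 in double loss, against 4.56, 4.63 and 4.53 in wild type. Lin28a loss stood apart, Lin28b loss lay between, and double loss overlapped with wild type. H2-DMb1 stood at least 4.09-fold higher in Lin28a loss than in wild type (means 7.69 ± 0.16 and 4.57 ± 0.05, SD; 3 of 3 Lin28a-loss arrays above background; limma, adjusted p = 2.72e-10). In Lin28b loss 1 array was above background, so the means of 5.67 and 4.57 gave only a bound of at least 1.0-fold higher (limma, adjusted p = 3.53e-06).

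H2-Oa had 7.15, 6.91 and 6.62 in Lin28a loss, 5.15, 5.11 and 5.11 in Lin28b loss, 5.16, 5.49 and 5.12 in double loss, against 5.08, 4.89 and 4.90 in wild type. Only Lin28a loss was well apart from the other groups. H2-Oa stood at least 2.34-fold higher in Lin28a loss than in wild type (means 6.89 ± 0.27 and 4.96 ± 0.11, SD; 3 of 3 Lin28a-loss arrays above background; limma, adjusted p = 3.32e-07). H2-DMa had 8.27, 7.88 and 7.67 in Lin28a loss, 6.39, 6.13 and 6.25 in Lin28b loss, 6.80, 6.90 and 6.86 in double loss, against 6.49, 6.69 and 6.55 in wild type. Lin28b loss lay lowest and Lin28a loss highest, and no groups overlapped. H2-DMa rose by 1.37 ± 0.13 in Lin28a loss (limma, adjusted p = 6.38e-06), and differed from wild type by -0.32 ± 0.13 in Lin28b loss (limma, adjusted p = 0.0797) and by 0.28 ± 0.13 in double loss (limma, adjusted p = 0.122). H2-DMb2 was above background in no group, so no fold is given for it.

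The promoters of H2-DMb1, H2-Oa and H2-Eb1 are shown because these class II region genes differ in which groups they were high. They lie at chr17:34152941-34153190 (H2-DMb1), chr17:34092129-34092378 (H2-Oa) and chr17:34305617-34305866 (H2-Eb1), all on the plus strand of GRCm38.p6, and are again the 250 bases before the RefSeq start. Capitals mark ATTGG or CCAAT.
H2-DMb1: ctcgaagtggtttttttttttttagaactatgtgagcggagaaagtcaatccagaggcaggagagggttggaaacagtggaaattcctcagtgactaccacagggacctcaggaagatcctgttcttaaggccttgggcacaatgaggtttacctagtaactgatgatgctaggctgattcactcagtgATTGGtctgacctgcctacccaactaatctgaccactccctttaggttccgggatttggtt
H2-Oa: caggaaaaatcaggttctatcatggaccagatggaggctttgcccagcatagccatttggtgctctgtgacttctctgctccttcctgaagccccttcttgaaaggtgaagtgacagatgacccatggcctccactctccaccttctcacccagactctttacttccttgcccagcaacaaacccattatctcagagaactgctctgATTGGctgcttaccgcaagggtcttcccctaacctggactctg
H2-Eb1: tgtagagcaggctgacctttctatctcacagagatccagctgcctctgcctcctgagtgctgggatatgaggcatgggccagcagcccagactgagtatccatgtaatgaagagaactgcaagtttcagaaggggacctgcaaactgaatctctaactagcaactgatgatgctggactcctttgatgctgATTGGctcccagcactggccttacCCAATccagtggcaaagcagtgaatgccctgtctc

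ATTGG begins 61 bases before the start in H2-DMb1, 43 in H2-Oa and 59 in H2-Eb1, and CCAAT begins 35 before it in H2-Eb1. The H2-DMa window, also taken before the most upstream start, held none of the 3 motifs searched.

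H2-Ke6 shares only the name prefix, since it encodes a hydroxysteroid dehydrogenase (Hsd17b8) and no histocompatibility molecule. It had 10.66, 10.60 and 10.45 in Lin28a loss, 10.49, 10.54 and 10.41 in Lin28b loss, 10.47, 10.72 and 10.69 in double loss, against 10.72, 10.75 and 10.72 in wild type. It passed no test, and its difference nearest to the threshold was -0.25 ± 0.09 in Lin28b loss (limma, adjusted p = 0.0515).

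**Figure D3:**
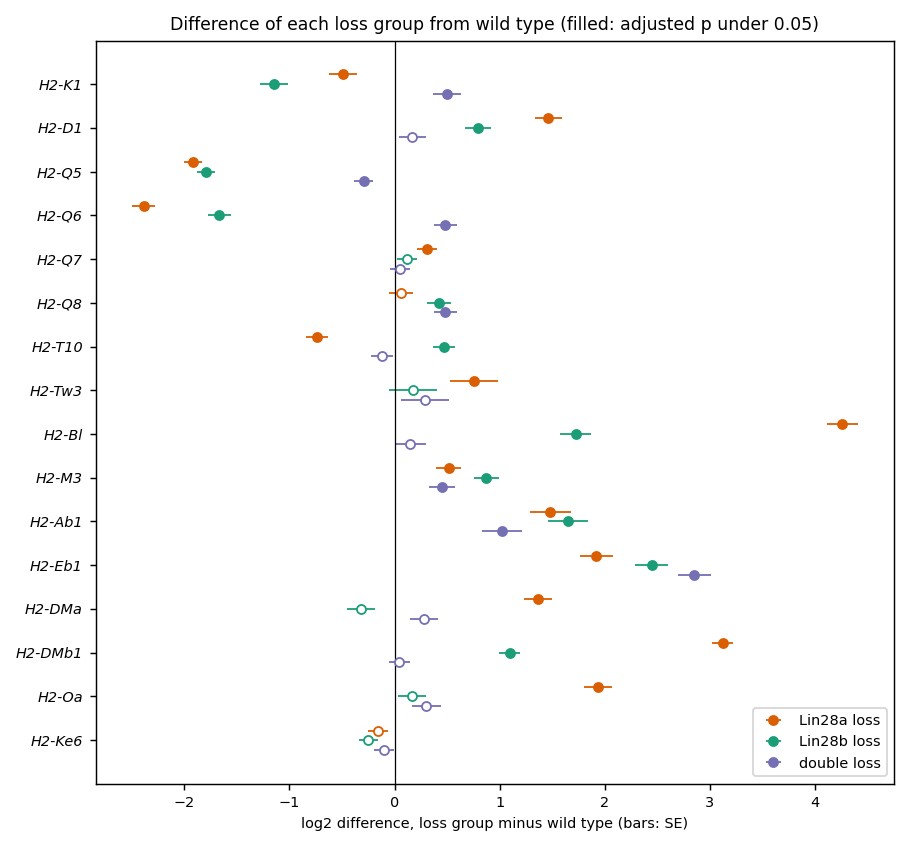
Points are log2 differences of each loss group from wild type for the 16 tested H2 genes, with bars for the SE, filled where the adjusted p was under 0.05. H2-Eb1, H2-Ab1 and H2-M3 lie right of 0 and are filled in all 3 loss groups. Other genes, such as H2-D1, also lie right of 0 in all 3 but are not filled in each. H2-Bl and H2-DMb1 lie far right only in single loss. The 3 comparisons share the wild-type arrays.

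In Lin28a loss against wild type, both on chip 1, 14 of the 16 tested members changed (36.7% of all 9912 tested genes did), 10 of them rising (18.3%) and 4 falling (18.4%). By a fitted difference of at least 2-fold, 9 changed (5.34% of all). Counts of 2-fold changes here and below use fitted differences, which for genes not above background in a group rest in part on that background. The bound of H2-Q5, for example, was 1.93-fold. The median difference was 0.64 over the members and -0.03 over all tested genes. A member bright in only some groups entered the test through the group where it was bright, so these counts are descriptions. With no filter on dim genes, 15 of 39 H2 entries changed, where 14.5% of 28814 genes did (H2-Eb2 had a brighter entry under another name). Among the 6 members above background on all 12 arrays, 4 changed (34.8% of all 7668 such genes).

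In Lin28b loss against wild type, which lie on different chips, 11 members changed (36.1% of all), 8 rising (18.9%) and 3 falling (17.2%). By fitted difference 7 changed by at least 2-fold (4.83%), among them H2-Bl, H2-Q5 and H2-DMb1, whose bounds were under 2-fold. Members had a median difference of 0.30, and all tested genes of 0.00. The no-filter fit called 13 of 39 (13.7% of all), and 5 of the 6 members that were always above background changed (35% of all such genes). In double loss against wild type, also across chips, 7 members changed (37% of all), 6 rising (18%) and 1 falling (19.1%), and only H2-Ab1 and H2-Eb1 changed by at least 2-fold (5.52% of all). Medians were 0.28 over the members and -0.01 over all, and the no-filter fit called 9 of 39 (15% of all). Of these, H2-T23 and H2-M2 were called only in that fit, and as neither was above background on any array no fold is given. The count of 7 in double loss was 2, both rising, when arrays were scaled by their medians in place of quantile normalization (17.4% of all). In Lin28b loss, median scaling gave 6 rises and 4 falls (18.2% of all changed). All comparisons against wild type share the same wild-type arrays.

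Double loss was compared with Lin28b loss within chip 2, where both groups are labelled with Lin28b loss and differ in Lin28a. Here 10 members changed (36.6% of all), 4 rising (16.9%) and 6 falling (19.7%), 5 of them by a fitted difference of at least 2-fold (4.81%). Among those 5, the bounds of H2-Bl, H2-Q5 and H2-DMb1 were under 2-fold. Medians were 0.09 over the members and -0.01 over all. The no-filter fit called 12 of 39 (14.2% of all). H2-Q6 rose by 2.15 ± 0.11 (limma, adjusted p = 3.78e-08) and H2-K1 by 1.65 ± 0.13 (limma, adjusted p = 1.48e-06). H2-Q5 was at least 1.37-fold higher in double loss, where 1 of 3 arrays was above background (means 6.08 and 4.59; limma, adjusted p = 9.68e-08). The other two tested Q region genes had no call, with -0.07 ± 0.09 for H2-Q7 and 0.06 ± 0.11 for H2-Q8. H2-DMa rose by 0.60 ± 0.13 (limma, adjusted p = 0.00372). H2-Bl was at least 1.82-fold lower in double loss (means 4.92 and 6.49; 3 of 3 Lin28b-loss arrays above background; limma, adjusted p = 6.02e-06) and H2-DMb1 at least 1.02-fold lower, with 1 bright array above background (means 4.62 and 5.67; limma, adjusted p = 5.53e-06). H2-T10 fell by 0.59 ± 0.10 (means 6.06 and 6.65; 3 of 3 Lin28b-loss arrays above background; limma, adjusted p = 0.000777). H2-D1 fell by 0.62 ± 0.13 (limma, adjusted p = 0.00197), H2-Ab1 by 0.63 ± 0.19 (limma, adjusted p = 0.0228) and H2-M3 by 0.42 ± 0.12 (limma, adjusted p = 0.0161). The call of H2-Ab1 was lost without Lin28b loss replicate 1 or 2 or double loss replicate 1 (limma, adjusted p up to 0.0913). That of H2-M3 was lost without Lin28b loss replicate 2 or 3 or double loss replicate 2 (limma, adjusted p up to 0.0597). H2-Eb1 differed by 0.41 ± 0.16 (limma, adjusted p = 0.058).

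The effect of Lin28a loss was therefore measured on each chip, once in lines labelled with Lin28b loss and once in lines without that label, though no array checks the loss of Lin28b. Averaged over both with chip as a block, 4 members changed (22.1% of all), 3 rising (10.6%) and 1 falling (11.5%). H2-Eb1 and H2-Oa changed by at least 2-fold (2.02% of all). This fit holds 1 effect for both chips, so members with unlike effects on the 2 chips gain a larger SE and are less readily called. For H2-Q6 the SE was 0.65 here, against 0.11 in Lin28a loss against wild type. H2-Eb1 rose by 1.16 ± 0.24 (limma, adjusted p = 0.00524), H2-Oa by 1.04 ± 0.27 (limma, adjusted p = 0.0181) and H2-DMa by 0.98 ± 0.15 (limma, adjusted p = 0.000645). For H2-Eb1 and H2-Oa the fitted differences were 1.92 and 1.93 on chip 1, but 0.41 and 0.14, with no call, on chip 2. H2-T10 fell by 0.66 ± 0.08 (limma, adjusted p = 0.000149). Medians were 0.42 over the members and -0.02 over all, and the no-filter fit called 5 of 39 (7.61% of all). Without the 3 brightest arrays, H2-Oa lost this call and 3 members were called.

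The difference between the effects on the 2 chips was tested as an interaction, the effect in lines labelled with Lin28b loss less that in the other lines. An additive difference between chips cancels in it. It was past the threshold for 12 members (37.8% of all), 3 above 0 (17.5%) and 9 below (20.3%), of which 9 were at least 2-fold in size (11.4%). Medians were -0.71 over the members and 0.00 over all, and the no-filter fit called 15 of 39 (14.9% of all). The 3 positive members were H2-Q6 at 4.54 ± 0.16 (limma, adjusted p = 7.02e-10), H2-Q5 at 3.41 ± 0.12 (limma, adjusted p = 8.05e-10) and H2-K1 at 2.14 ± 0.19 (limma, adjusted p = 3.33e-06). Each rose with Lin28a loss in the lines labelled with Lin28b loss and fell with it in the others. The most negative were H2-Bl at -5.83 ± 0.21 (limma, adjusted p = 8.7e-10) and H2-DMb1 at -4.17 ± 0.14 (limma, adjusted p = 5.53e-10). These had the opposite pattern, lower with Lin28a loss in the lines labelled with Lin28b loss and higher with it in the others. H2-T10 fell in both settings, and its interaction was 0.15 ± 0.15 (limma, adjusted p = 0.47). No call was made for H2-Q8, H2-Tw3 or H2-Ke6 either. Where a gene was not above background in a group, the size of its interaction rests in part on that background.

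**Figure D4:**
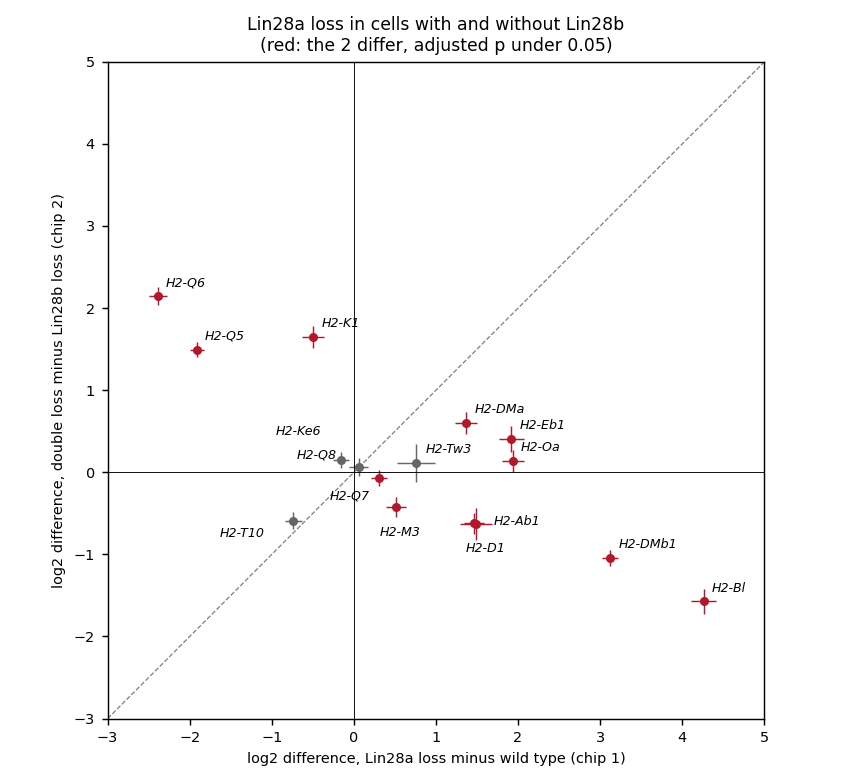
The horizontal axis is the log2 difference of Lin28a loss from wild type (chip 1) and the vertical axis that of double loss from Lin28b loss (chip 2), with SE bars, for the 16 tested H2 genes. Genes on the dashed line would have equal effects. The 12 red genes had an interaction with adjusted p under 0.05, and H2-Q6, H2-Q5 and H2-K1 lie upper left while H2-Bl and H2-DMb1 lie lower right.

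Genes that load class I molecules with peptide were set beside the H2 members. Of 17 listed, 9 were tested. In Lin28a loss against wild type 3 rose and 3 fell (median -0.03). Psmb9, an immunoproteasome subunit encoded within the class II region, averaged 7.08 ± 0.05 in Lin28a loss and 4.71 ± 0.26 in wild type (SD, n = 3 each). It was at least 2.67-fold higher, with all 3 Lin28a-loss arrays above background (limma, adjusted p = 1.98e-08). The other rises were Psmb10, an immunoproteasome subunit, by 0.75 ± 0.17 (limma, adjusted p = 0.00358) and Tap2, a chain of the peptide transporter, by 0.57 ± 0.16 (limma, adjusted p = 0.0162). The proteasome activators Psme2 and Psme1 and the loading chaperone Tapbp fell by 0.70, 0.26 and 0.48 (limma, adjusted p = 0.00705, 0.0352 and 0.0142). In Lin28b loss 4 were called higher and none of the 9 lower (median 0.14), with Pdia3 rising by 0.54, Tapbp by 0.49 and Sec61a1 by 0.36. Psmb9 was the fourth, but it was above background neither there nor in wild type, so no fold is given. In double loss Pdia3 rose by 0.61, and Psmb10, Psme2 and Psme1 fell by 0.73, 0.66 and 0.32 (median -0.17). Double loss against Lin28b loss had 5 calls, all lower (median -0.43), among them Psmb10, which fell by 0.77, and Psmb9, again above background in neither group. With chip as a block, Psme2, Tapbp and Psme1 fell by 0.64, 0.46 and 0.26. Psmb9 had an interaction of -3.08 ± 0.17 (limma, adjusted p = 6.57e-08), and those of Psmb10 and Tap2 were -1.52 and -1.0.

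Of 19 listed regulators of class I transcription and interferon signalling, 9 were tested. Irf1, the interferon-responsive activator of class I promoters, averaged 8.32 ± 0.14 in Lin28a loss, 9.76 ± 0.03 in Lin28b loss, 8.88 ± 0.03 in double loss and 9.12 ± 0.03 in wild type (SD, n = 3 each). It fell by 0.80 ± 0.08 in Lin28a loss (limma, adjusted p = 1.29e-05), rose by 0.64 ± 0.08 in Lin28b loss (limma, adjusted p = 8.03e-05), and in double loss it fell by 0.24 ± 0.08 (limma, adjusted p = 0.0424). Lin28a loss had 1 rise, of Rfxap (0.37), and 3 falls, of Irf1, of Nfkb1 (-0.30) and of Nfya, which was at least 1.05-fold lower with 1 wild-type array above background. In Lin28b loss 4 rose and none of the 9 fell, with the interferon gamma receptor chain Ifngr1 at least 1.66-fold higher (3 of 3 Lin28b-loss arrays above background) and Irf2 at least 1.13-fold higher (2 of 3), and Rela rising by 0.29. In double loss Rela rose by 0.78, and Nfyb fell by 0.38. Double loss against Lin28b loss had 1 rise, of Rela by 0.49, and 4 falls, of Ifngr1 (-0.89), Irf1 (-0.88), Nfkb1 (-0.36) and Irf2 (at least 1.16-fold lower). With chip as a block Irf1 fell by 0.84 ± 0.07 (limma, adjusted p = 4.51e-06) and Nfkb1 by 0.33. Interactions passed for Ifngr1 (-1.01), Irf2 (-0.85), Rfxap (-0.42) and Rela (0.49).

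Of 9 listed genes of the class II pathway, 7 were measured and only 3 were above background in a group. Ctsl, a protease of endosomes, averaged 5.56 ± 0.18 in Lin28a loss, 6.89 ± 0.14 in Lin28b loss, 7.36 ± 0.05 in double loss and 7.68 ± 0.08 in wild type (SD, n = 3 each). It fell by 2.12 ± 0.11 in Lin28a loss (limma, adjusted p = 1.61e-08), by 0.80 in Lin28b loss and by 0.33 in double loss, and rose by 0.47 in double loss against Lin28b loss. Its interaction was 2.59 ± 0.15 (limma, adjusted p = 8.73e-08). Lgmn, another endosomal protease, and Ifi30, a thiol reductase of antigen processing, rose by 0.52 and 0.71 in Lin28a loss and had interactions of -0.58 and -1.08. Neither passed the threshold in the other comparisons. With chip as a block the value of Ctsl was -0.83 (limma, adjusted p = 0.139).

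The H2 genes share chromosome 17 with many others, whose order was taken from RefSeq. Between the first and the last H2 gene 567 other entries lie, of which 285 were tested. RefSeq places H2-Q8, H2-D4 and H2-T18 far ahead of the others, so this span is wide. In Lin28a loss against wild type 61 of the 285 rose and 56 fell (median -0.02), so 41.1% changed, against 36.7% of all tested genes. The genes named here were taken in the order of their fitted differences, which for a gene not above background in a group rest in part on that background. For a difference between 2 groups only a bound is given for such genes, and the bounds set no order. Those that rose were Abhd16a, a lipid hydrolase (at least 15.2-fold higher; limma, adjusted p = 4.99e-10), Wdr46 (at least 8.92-fold), Ubd, a ubiquitin-like protein (at least 4.53-fold), and Myo1f (at least 2.86-fold), each with 3 of 3 Lin28a-loss arrays above background. Those that fell were Dnah8 (-1.76), Ier3 (-1.51), Gm8909 (-1.49) and T, the mesoderm factor brachyury (at least 1.85-fold lower). In Lin28b loss 75 rose and 46 fell (median 0.09), so 42.5% changed, against 36.1% of all. Wdr46 (at least 13.1-fold higher), Abhd16a (15.8-fold), Ubd (6.34-fold) and Tiam2 (2.18-fold) rose. Gm8225 (at least 4.16-fold lower), Dnah8 (-2.14), T (at least 1.61-fold lower) and Arhgdig (-1.40) fell. All 3 arrays of the brighter group were above background for each such bound on a neighbour. Abhd16a averaged 9.59 ± 0.15 in Lin28a loss, 9.64 ± 0.04 in Lin28b loss, 5.18 ± 0.29 in double loss and 5.36 ± 0.22 in wild type (SD, n = 3 each). Wdr46 and Ubd had the same order of high single-loss and low double-loss and wild-type levels, with wild-type means of 4.91 and 5.07.

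In double loss against wild type 43 neighbours rose and 50 fell (median 0.00), so 32.6% changed, against 37% of all tested genes. Tiam2 (at least 4.83-fold higher), Zfp160 (2.73), 2300002M23Rik (2.17) and Gng13 (1.76) rose, while Gm8225 (at least 4.14-fold lower), T (at least 1.6-fold lower), Arhgdig (-1.22) and Znrd1as (-1.03) fell. In double loss against Lin28b loss 42 rose and 63 fell (median -0.07), so 36.8% changed, against 36.6% of all. Abhd16a (at least 16.1-fold lower), Wdr46 (13.4-fold), Ubd (6.47-fold) and Kank3 (-1.27) fell, and 2300002M23Rik (1.43), Dnah8 (1.32), Ly6g6c (1.19) and Srsf3 (1.18) rose. With chip as a block Cyp4f14 (1.21), Tmem181c-ps (1.18), Mslnl (1.09) and Ly6g5c (0.92) rose, and Ier3 (-1.33), Sik1 (-0.82), Rgs11 (-0.72) and Kank3 (-0.70) fell. Mslnl was above background on no array of double loss, Lin28b loss or wild type, so its fitted value rests in part on that background. The fitted interactions were -8.68 for Abhd16a, -8.35 for Wdr46, -6.11 for Ubd and -3.80 for Myo1f, against 3.09 for Dnah8, 2.06 for Srsf3, 1.97 for Glo1 and 1.92 for Gm8909. Where a gene was not above background in a group, the size of its interaction rests in part on that background.

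In the narrower span from H2-K1 to H2-M2, which was chosen after the order had been seen, 71 of 137 neighbours were tested. There 45.1% changed in Lin28a loss (11 rising, 21 falling), against 36.7% of all tested genes. In Lin28b loss 43.7% did (23 rising, 8 falling), against 36.1% of all. In double loss 22.5% did (6 rising, 10 falling), against 37% of all. In double loss against Lin28b loss 40.8% did (11 rising, 18 falling), against 36.6% of all. By at least 2-fold, 9.86% of these neighbours changed in Lin28a loss (5.34% of all), 4.23% in Lin28b loss (4.83%) and 5.63% in double loss (5.52%). Nothing is read from these shares about the span. Among the genes between H2-DMb1 and H2-Eb1, both higher in Lin28a loss, is Psmb9, which rose too. In the whole narrower span 11 tested neighbours rose in Lin28a loss and 21 fell, and a shared change of neighbouring genes was not tested.

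**Figure D5:**
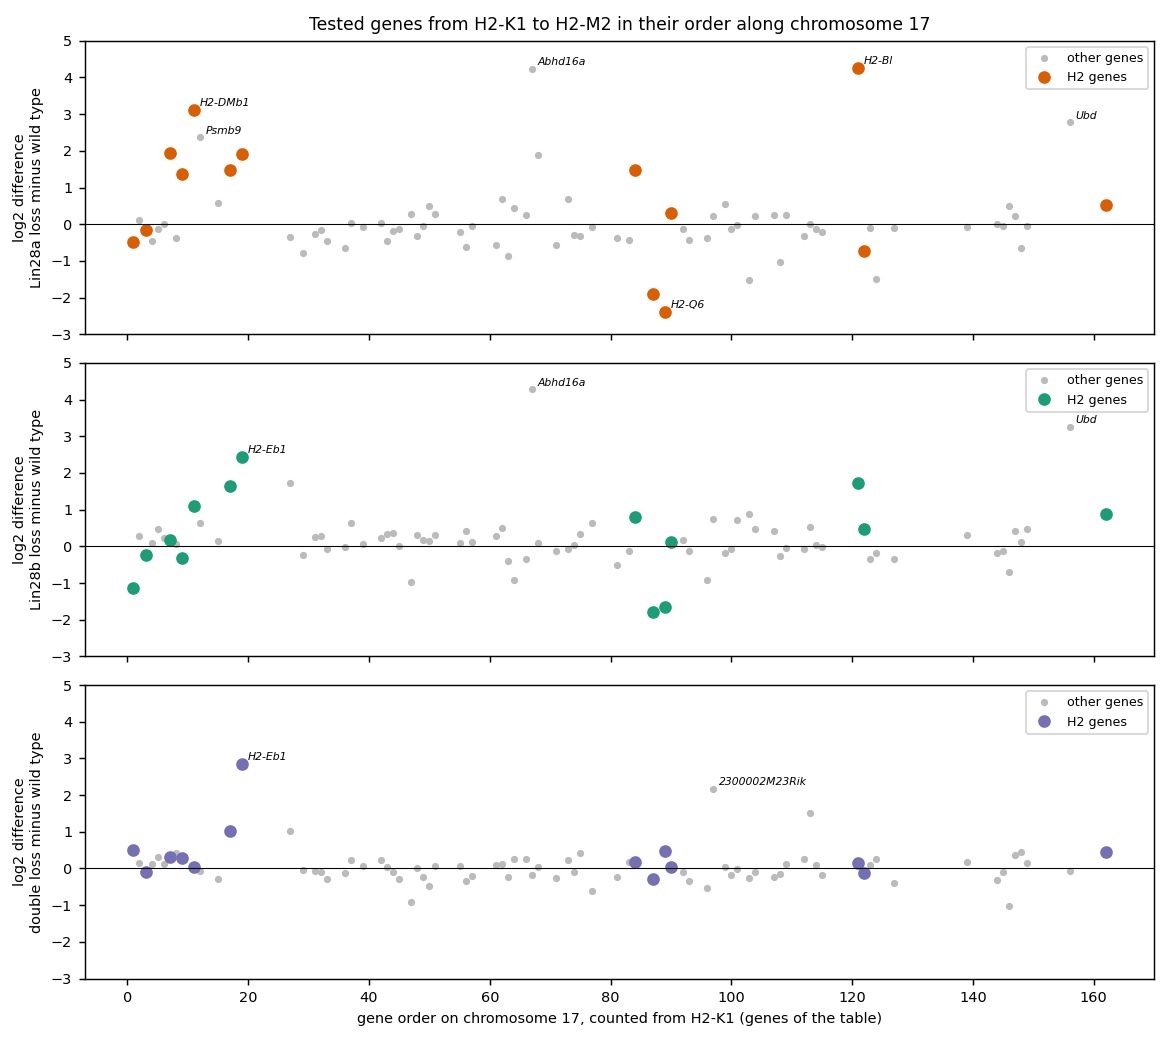
Each point is a tested gene from H2-K1 to H2-M2 in its order on chromosome 17, and the vertical axis is the log2 difference from wild type in Lin28a loss (top), Lin28b loss (middle) and double loss (bottom). Large coloured points are H2 genes and small grey points the other genes. H2-DMb1 and H2-Bl are high and H2-Q6 is low in the top panel, and in double loss H2-Eb1 stands highest.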

How the data were processed

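RNA of 12 mouse stem cell samples was measured on Illumina WG-6 BeadChips. The deposited gene-level table holds, per the file headers, the mean bead intensity of each gene and array on a linear scale, with no background subtraction and no normalization (GenomeStudio GSGX 1.9.0). It also holds a detection p-value per gene and array which GenomeStudio wrote alongside, per the file headers. Where several probes read a gene, the deposited table gives 1 signal and 1 detection p. There were 72 further columns of per-sample values that went unused, among them those of deposited tables that give probes without gene names or columns that match no sample.

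Background was estimated from the detection p of 21873 entries with 1 probe. Intensities were corrected with normexp in limma 3.58.1 (R 4.3.3), raised by an offset of 16, put on the log2 scale and quantile normalized. Of 30854 entries, 10372 passed a detection p of 0.01 on each array of some group. The brightest entry per gene was kept, which left 9912. Names were brought up to date with a RefSeq table of GRCm38.p6 (18045 entries by Entrez identifier, 2073 by symbol, 2715 by synonym, 8021 unmatched), while H2 entries kept the file's symbol. All 12 arrays entered 1 limma fit (lmFit, eBayes), with Benjamini-Hochberg adjustment of the p-values within each of 6 comparisons. The code was tested on simulated data. The number of arrays limits precision.

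Every H2 entry was accounted for. Those above background on all 3 arrays of a group are given by array, and of each pathway list and of the chromosome 17 neighbours the 4 largest rises and falls among called genes are named. H2-DMb2, H2-T23 and H2-M2 were singled out after their values were seen. The genes and lists were chosen with earlier results of these data known. Replicate numbers were not taken as pairs: of 18 same-numbered pairs across groups, 9 had deviations correlated above 0.1 (range -0.57 to 0.69). Alternatives covered the normalization, the offset, the filter on dim genes, the arrays fitted, array weights, a replicate block and leaving out each array. Leaving out the 3 brightest arrays was added after seeing the data. Figures were drawn with matplotlib 3.10.9 (Python 3.11.15).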

Additional observations from a re-analysis of the deposited data

Results flagged for a closer look

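For 12 of the 16 tested H2 genes, the effect of Lin28a loss differed between the lines labelled with Lin28b loss and the others, by the limma interaction at adjusted p under 0.05. The difference of the effects was positive for H2-Q6 (4.54), H2-Q5 (3.41) and H2-K1 (2.14). It was negative for H2-Bl (-5.83), H2-DMb1 (-4.17), H2-Ab1 (-2.11), H2-D1 (-2.09), H2-Oa (-1.80), H2-Eb1 (-1.51), H2-M3 (-0.94), H2-DMa (-0.77) and H2-Q7 (-0.37). For H2-DMa the effects themselves were 0.60 in the lines labelled with Lin28b loss and 1.37 in the others, so both were rises of different size. H2-Oa had 0.14 and 1.93 in the same order. For H2-Q7 the adjusted p was 0.0432, and its call was lost in 9 of the 12 fits that each left out 1 array (limma, adjusted p up to 0.102).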

How the results depend on the processing

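Of 58 called gene differences of the members, set against 1280 alternative values, 1230 kept direction and call, 50 lost the call and 0 reversed. Another 40 of 836 values gained a call for members not called. The count of members changed in double loss against wild type (7) was 2 under median scaling and 11 with array weights. Testing only genes above background on all 12 arrays left 6 members, of which 4, 5 and 3 changed in Lin28a loss, Lin28b loss and double loss against wild type, 3 in double loss against Lin28b loss, 2 with chip as a block and 4 by interaction (34.8, 35, 35.1, 34.9, 19.8 and 35.4% of all 7668 such genes). Leaving out each array in turn gave counts of 12 to 14, 10 to 13, 6 to 8, 8 to 11, 4 to 4 and 11 to 12 in that order, and leaving out the 3 brightest arrays gave 14, 13, 8, 12, 3 and 13, while the share of all genes changed was 49.9, 48, 43.3, 49, 19.9 and 52.2%. With the replicate block, counts were 14, 11, 7, 10, 4 and 11, where H2-Q7 lost its interaction. Among all tested genes, 3640, 3581, 3672, 3629, 2187 and 3747 changed, against 1400, 1800, 1721, 1208, 788 and 1464 under median scaling and 5204, 5677, 5752, 5741, 3304 and 5611 with array weights. Median scaling also moved the median of all genes to -0.23 in Lin28b loss and to -0.14 in double loss against wild type. Calls lost most often were H2-Q7 in Lin28a loss and in the interaction, H2-Tw3 in Lin28a loss and H2-Q5 in double loss against wild type. The call of H2-K1 in Lin28a loss was lost without wild type replicate 2 (limma, adjusted p = 0.0533), and that of H2-Q8 in Lin28b loss without Lin28b loss replicate 2 (limma, adjusted p = 0.0598). Genes near background have only bounds on their fold.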
